A study of Equus caballus with 6 samples.

Results

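Macrophage, lymphocyte and antigen presentation genes were examined in the testicular parenchyma of 6 adult stallions (Equus caballus), that is tubules together with interstitium. The genes were a list of 42 symbols, 18 of macrophages and other myeloid cells, 8 of antigen presentation and 16 of lymphocytes. A probe was taken as a member if the gene table of the array gave it exactly 1 of these symbols. This found 46 probes for 37 of the 42 genes, among 53423 gene probes of which 23472 carry exactly 1 symbol. The 5 genes left over (AIF1, FCGR3A, FCER1G, CD74 and TAP2) were read only by 6 probes shared with another symbol. All 6 stallions had been acclimated for 10 days. Their testes were taken 12 h after 1 injection, and each animal gave 1 array. The 3 treated stallions had received 0.1 mg/kg dexamethasone intravenously, a synthetic agonist of the glucocorticoid receptor, and the 3 controls an equal volume of saline. Nothing in the labels gives breed, or age beyond adult. The RNA came from minced parenchyma and so mixes every cell type of the tissue. It was hybridised to human CodeLink arrays, so the probes were made for human transcripts and the RNA was equine.

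The testis holds a resident population of macrophages in the interstitium, close to the Leydig cells, while lymphocytes are sparse and the tubules are kept apart from the immune system. Macrophages take up debris and sense complement and chemokines. They also show peptides on class II molecules of the major histocompatibility complex, while class I molecules, which need beta-2-microglobulin and the TAP transporter, are present on most nucleated cells. Glucocorticoids act on most leukocytes and change both their numbers in blood and their gene expression.

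Each spot has a signal strength, the mean of the spot over its own noise level, and a value of at least 1 with no near-background flag is called above background here. The 6 arrays had 22690 to 25537 gene probes above background (42.5% to 47.8%), and their normalised values correlated at 0.982 to 0.989 over 15 pairs, across probes, which are not independent replicates. The labelled tissue was checked against its markers. On 3 or more arrays, 6 of 8 Leydig cell genes were above background, of 7 Sertoli cell genes 6, and of 8 germ cell genes 5. These are 75%, 85.7% and 62.5%, against 58.2% of all genes with a probe of their own, so the germ cell share lies near that of all genes. The germ cell genes PRM2, TNP1 and DDX4, named after their values were seen, were above background on 0 arrays in this tissue. So were the Leydig cell gene NR5A1 and the Sertoli cell gene SOX9, and the Leydig cell gene HSD17B3 was on 1. The fit between human probe and horse sequence could not be looked at here, so a probe at background does not show that a gene is silent.

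Of the 37 immune genes 22 were above background on 3 or more arrays (59.5%), against 58.2% of the 18278 genes with a probe of their own. The share was 7 of 15 for myeloid genes, 3 of 6 for antigen presentation and 12 of 16 for lymphocyte genes. Of the 37, 14 genes were above background on all 6 arrays, 1 gene (MARCO) was on 2 arrays only, and 14 were on none. Over all 18278 genes, 8324 were above background on all 6 arrays, 1678 on 1 or 2 and 5965 on none. Of the 46 probes 17 were above background on all arrays and 20 on none. The 20 had signal strengths of at most 0.999 and background-subtracted intensities of -4.53 to 33.0, on local backgrounds that for all members lay between 40 and 71. With a signal strength of at least 2 in place of 1, 9 genes remained, and the share of all genes at that level was not counted. Of the member symbols 33 of 37 occur as gene symbols or synonyms in the RefSeq table of horse genes (assembly TB-T2T), and 20 of these were above background on 3 or more arrays. Over all genes it was 8812 of 14403. The other 4 were FCGR1A, HLA-DRA, HLA-DMA and HLA-DMB, of which 2 were above background. Only symbols were matched, so a symbol not found there does not show that the horse lacks the gene.

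**Figure D1:**
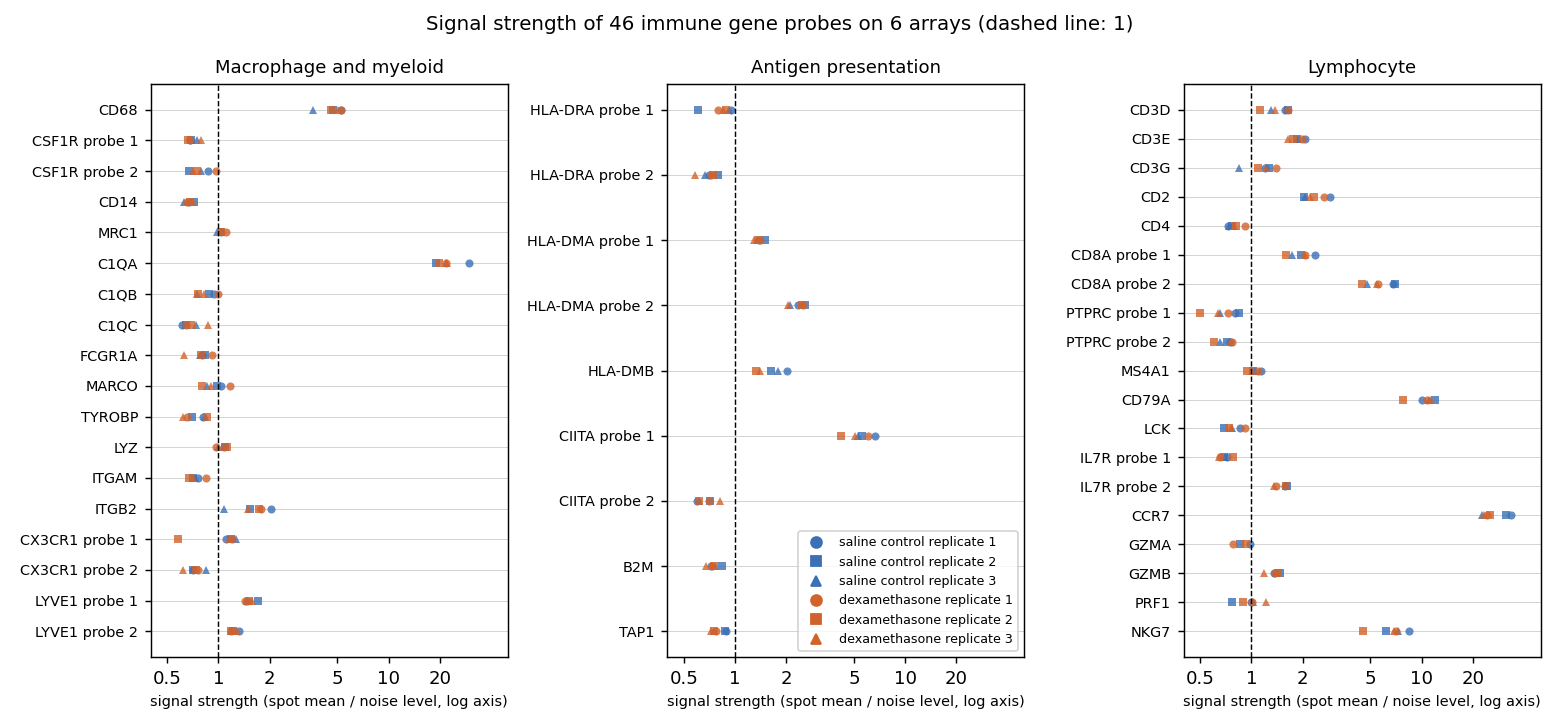
Signal strength (spot mean over noise level, log axis) of the 46 probes on the 6 arrays, by gene role, with 1 marker per stallion and a dashed line at 1. Some genes, such as C1QA at 19.0 to 29.5 and CCR7 at 22.8 to 33.7, lay far to the right of the line on every array, and 20 probes lay to its left on every array. A probe's place on the axis does not rank it against other genes.

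Among the classical macrophage markers the detected and undetected genes did not follow complexes or pairs. C1QA, a chain of the C1q complement complex, was above background on all 6 arrays, while the probes of its partner chains C1QB and C1QC were on none, with signal strengths of 0.746 to 0.999 and 0.610 to 0.867. ITGB2, the common chain of the leukocyte integrins, was above background on 5 arrays, while ITGAM, an alpha chain that pairs with it, was on none (0.670 to 0.840). CD68, a lysosomal glycoprotein of macrophages, was above background on all 6 arrays at signal strengths of 3.60 to 5.28. Both probes of CSF1R, the receptor for the macrophage growth factor, stayed below 1 on all arrays (highest 0.969). CD14, the co-receptor for lipopolysaccharide (highest 0.722), the Fc receptor FCGR1A (0.916) and the signalling adaptor TYROBP (0.860) were also on 0 arrays. MARCO, a scavenger receptor, lay just outside the filter at 0.795 to 1.17, and MRC1, the mannose receptor, just inside it at 0.977 to 1.10, above background on 5 arrays. LYZ, lysozyme, was above background on 4 arrays (0.961 to 1.12).

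Of the 7 tested myeloid genes 6 were higher after dexamethasone and 1 lower, 0 passed limma's test, and the median difference was 0.06 on the log2 scale. Over all 10604 tested genes the median was -0.01. In a bulk sample, fewer cells of a type and less RNA per cell cannot be told apart. Values here and below are normalised log2 intensities, and differences are dexamethasone minus control. CD68 read 8.75, 8.67 and 8.52 in the saline stallions and 8.68, 8.73 and 8.84 in the treated ones. The groups overlapped, the highest and lowest animals lay 0.32 apart, and the difference was 0.10 ± 0.09 (SE). C1QA read 10.95, 10.57 and 10.93 in saline stallions and 10.89, 10.78 and 11.03 in treated ones. One saline animal, replicate 2, was the lowest of the 6, the groups overlapped, and the difference was 0.09 ± 0.12 (SE). For LYVE1, a hyaluronan receptor of lymphatic endothelium and of some tissue macrophages, the first of its probes read 6.87, 7.11 and 6.95 against 6.86, 7.06 and 7.13. The groups overlapped, and the differences of its probes were 0.04 ± 0.10 and 0.02 ± 0.09 (SE).

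CX3CR1, the receptor for fractalkine, had the widest range of the tested members, 0.69. Its other probe was above background on 0 arrays (signal strength 0.617 to 0.846). The tested probe read 6.45, 6.62 and 6.79 in the saline stallions and 6.60, 6.10 and 6.58 in the treated ones, so that treated replicate 2 alone lay below the others and below background (signal strength 0.582). The difference of -0.20 ± 0.14 (SE) was -0.03 without that animal and -0.55 with plain background subtraction. MRC1 had the narrowest range of the tested members, at 6.41, 6.43 and 6.45 against 6.47, 6.55 and 6.46. All its saline values lay under its treated values, but 6.45 and 6.46 were next to each other, and the difference was 0.06 ± 0.08 (SE). LYZ ranged from 6.34 to 6.64, with a difference of 0.02 ± 0.10. ITGB2 ranged from 7.03 to 7.32 over 5 usable spots, with a difference of 0.13 ± 0.11 (SE), or 0.03 when the flagged spot of control replicate 1 was kept.

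Antigen presentation genes were above background in 3 of 6 cases. HLA-DMA and HLA-DMB, the chains of the heterodimer that loads peptides onto class II molecules, were above background on 6 and 5 arrays, the sixth HLA-DMB spot having no value. CIITA, the transactivator of class II genes, was above background on all 6 arrays by 1 probe (signal strength 4.22 to 6.68) and on none by the other (0.601 to 0.817). HLA-DRA, the alpha chain of a class II molecule itself, was on 0 arrays by both of its probes, at most 0.950. B2M, beta-2-microglobulin, was on 0 arrays (0.680 to 0.840), as was TAP1, a subunit of the peptide transporter (0.725 to 0.881). The probes shared with other symbols, among them those for CD74, the class II invariant chain, and for TAP2, were also on 0 arrays, with signal strengths of 0.629 to 0.988 over the 6.

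None of the 3 tested antigen presentation genes passed limma's test, and their median difference was -0.03. HLA-DMB came nearest of all members. It read 7.22, 7.07 and 7.22 in the saline stallions and 6.98 and 6.96 in treated replicates 2 and 3, with groups that did not overlap. Its difference was -0.20 ± 0.10 (SE), with limma's unadjusted p = 0.0689 and adjusted p = 0.999. Slide numbers, read from the names of the deposited array data, fall into 2 consecutive runs, each with both treatments. Blocked on the run, the difference was -0.21 ± 0.10, and within the runs it was -0.17 (2 controls, 1 treated animal) and -0.26 (1 against 1). With the authors' scaled values it was -0.36. Its partner HLA-DMA read 7.47, 7.63 and 7.48 in the saline stallions against 7.72, 7.94 and 7.46, by the probe with the higher level. Treated replicate 2 was the highest and treated replicate 3 the lowest of the 6, and the difference was 0.18 ± 0.12 (SE). It was 0.06 without treated replicate 2 and 0.30 without treated replicate 3, and the other HLA-DMA probe differed by 0.01 ± 0.09 (SE). CIITA read 8.97, 8.75 and 8.80 against 8.95, 8.70 and 8.79, with overlapping groups and a difference of -0.03 ± 0.10 (SE).

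**Figure D2:**
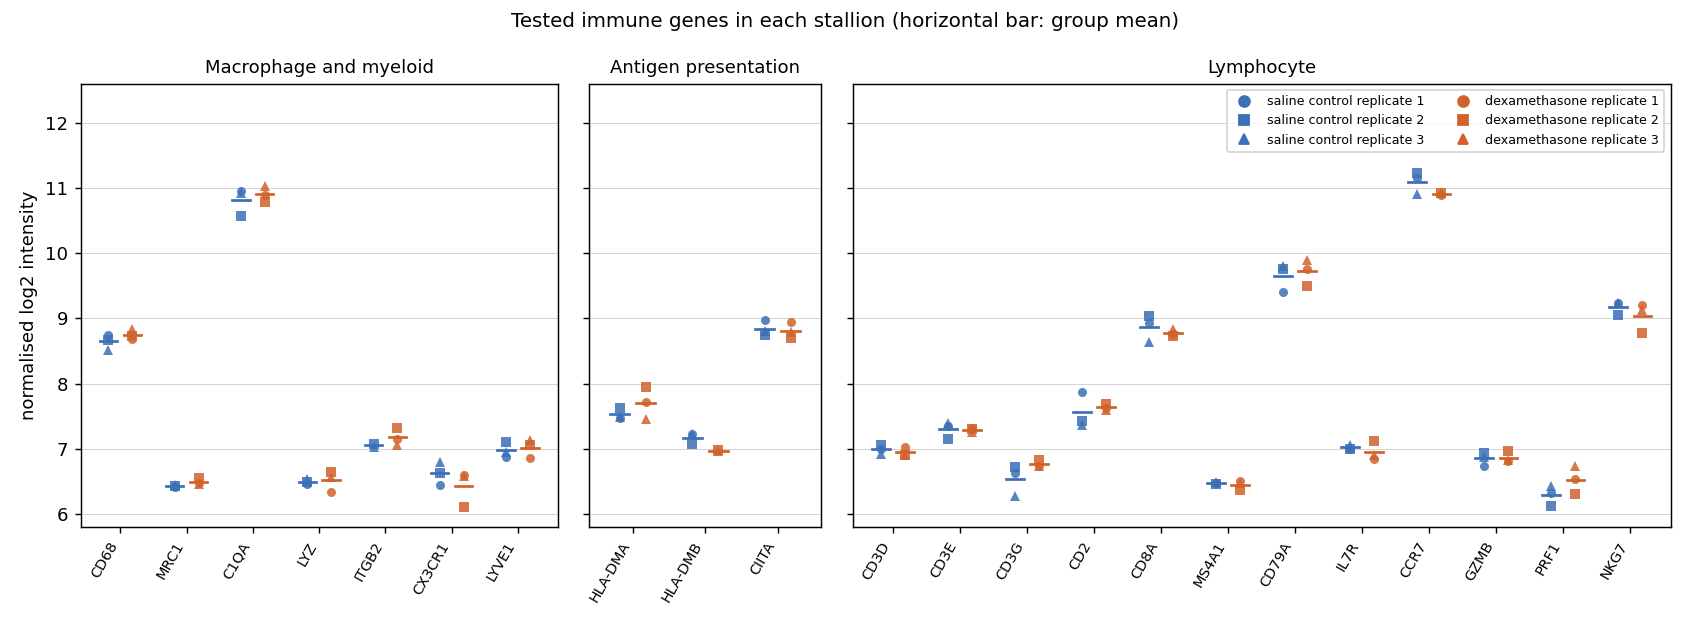
Normalised log2 intensity of the 22 tested immune genes in each stallion, with the probe of highest level for each gene, saline controls in blue, dexamethasone in orange and horizontal bars for group means (n = 3 each, 2 for saline ITGB2 and treated HLA-DMB). The groups lay on top of each other for most genes. Levels of different genes come from different probes and are not comparable.

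Lymphocyte genes were above background in 12 of 16 cases. CD3D and CD3E, chains of the CD3 complex that signals for the T cell receptor, were above background on all 6 arrays (signal strengths 1.12 to 1.64 and 1.64 to 2.07) and CD3G on 5 (0.851 to 1.40). CD2, an adhesion molecule of T and NK cells, and CD8A, the co-receptor of cytotoxic T cells, were above background on all arrays, the latter by both probes. CD4, the co-receptor of helper T cells (at most 0.919), and LCK, the kinase bound to both co-receptors (at most 0.922), were on none. PTPRC, which encodes CD45 and is carried by nearly all leukocytes, was on 0 arrays by both of its probes, at most 0.849 and 0.773. The B cell genes CD79A (7.81 to 12.0) and MS4A1 (0.939 to 1.14), for CD20, were above background on 6 and 5 arrays. IL7R, the receptor for interleukin 7, was above background on all arrays by 1 probe and on none by the other. CCR7, a homing receptor, GZMB, a granzyme, and NKG7, a granule protein of cytotoxic cells, were above background on all 6. PRF1, the pore protein perforin, was above background on 3, that is 2 treated and 1 saline animal. GZMA had 4 usable spots, all below background.

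None of the 12 tested lymphocyte genes passed limma's test; 5 were higher and 7 lower after dexamethasone, with a median of -0.02. Within the CD3 complex, CD3D read 6.99, 7.06 and 6.92 in saline stallions and 7.03, 6.91 and 6.91 in treated ones. CD3E read 7.35, 7.15 and 7.39 against 7.32, 7.30 and 7.25. Both overlapped, with differences of -0.04 ± 0.09 and -0.01 ± 0.09 (SE). CD3G read 6.63, 6.72 and 6.27 in saline stallions against 6.74, 6.82 and 6.74, with groups that did not overlap, and saline replicate 3, below background, was the lowest. Its difference of 0.23 ± 0.12 (SE) was 0.09 without that animal and 0.53 with plain background subtraction (limma's unadjusted p = 0.0817, adjusted p = 0.999). Within the runs of slide numbers it was 0.11 and 0.47, and 0.23 ± 0.10 blocked on the run. Whether the chains of the complex differ from each other in this was not tested.

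CD2 read 7.87, 7.43 and 7.37 in the saline stallions and 7.63, 7.69 and 7.60 in the treated ones. Saline replicate 1 was the highest of the 6 and the other saline animals the lowest, and the difference was 0.08 ± 0.13 (SE), or 0.24 without that animal. CD8A read 8.93, 9.04 and 8.63 against 8.76, 8.73 and 8.83, with treated values inside the saline range. Its probes differed by -0.09 ± 0.11 and -0.04 ± 0.10 (SE). CCR7 read 11.15, 11.23 and 10.90 in saline stallions and 10.89, 10.93 and 10.92 in treated ones. The treated animals were close together and saline replicate 3 lay among them, so that the groups overlapped. The difference was -0.18 ± 0.10 (SE), -0.11 without control replicate 2, -0.28 without control replicate 3 and -0.32 under median scaling. It was -0.28 within the first run of slide numbers and 0.02 within the second. IL7R read 7.00, 7.00 and 7.06 against 6.85, 7.12 and 6.90, a difference of -0.06 ± 0.09 (SE) with overlapping groups.

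CD79A, a signalling chain of the B cell receptor, read 9.40, 9.75 and 9.81 in saline stallions against 9.76, 9.50 and 9.90. Saline replicate 1 was the lowest of the 6 and treated replicate 2 the next, and the difference was 0.06 ± 0.14 (SE). MS4A1 ranged from 6.36 to 6.51 and differed by -0.03 ± 0.08 (SE). Among the cytotoxic granule genes, NKG7 read 9.24, 9.05 and 9.23 against 9.21, 8.78 and 9.13. Treated replicate 2 was its lowest animal, and the difference of -0.13 ± 0.12 (SE) was -0.00 without that animal. GZMB read 6.74, 6.94 and 6.88 against 6.81, 6.96 and 6.82, with a difference of 0.01 ± 0.09 (SE). PRF1 read 6.32, 6.12 and 6.43 in saline stallions against 6.53, 6.31 and 6.74, and the groups overlapped. Its difference of 0.24 ± 0.12 (SE) was the highest of the members (limma's unadjusted p = 0.0839, adjusted p = 0.999). It was 0.66 with the authors' scaled values, and 0.24 ± 0.10 blocked on the slide run, with limma's unadjusted p = 0.0410. Within the runs it was 0.20 and 0.31. It was 0.15 without control replicate 2 and 0.35 without treated replicate 2. PRF1 was at the edge of the filter, with signal strengths of 0.773 to 1.22 and 3 arrays above background. It left the test when any of these 3 was left out or when all 6 were required.

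Over the 25 tested probes, 0 passed limma's test at an adjusted p of 0.05, where 0.00407% of all 24590 tested probes did (1 probe, of ATPAF1, which is not on the list). At an unadjusted p under 0.05 the members again gave 0 of 25, against 3.29% of all tested probes (1.47% higher and 1.82% lower). Groups did not overlap for 3 of the 25 (12.0%), against 9.27% of all tested probes, a share near the background. Of these MRC1 and CD3G were higher after dexamethasone (4.2% of all tested probes) and HLA-DMB lower (5.07%). The differences ran from -0.20 to 0.24 with standard errors of 0.08 to 0.14, and their median size was 0.06, against 0.07 for all tested probes. No 95% interval reached below -0.52 or above 0.52, that is below 0.698-fold or above 1.43-fold of the control level on this scale. The offset added before the log compresses differences of probes close to background, so for dim genes these limits apply to the measured scale and not to the amount of transcript. For a single gene, the smallest p of an exact permutation test (two-sided) of 3 stallions against 3 is 0.1. The number of arrays limits the precision.

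**Figure D3:**
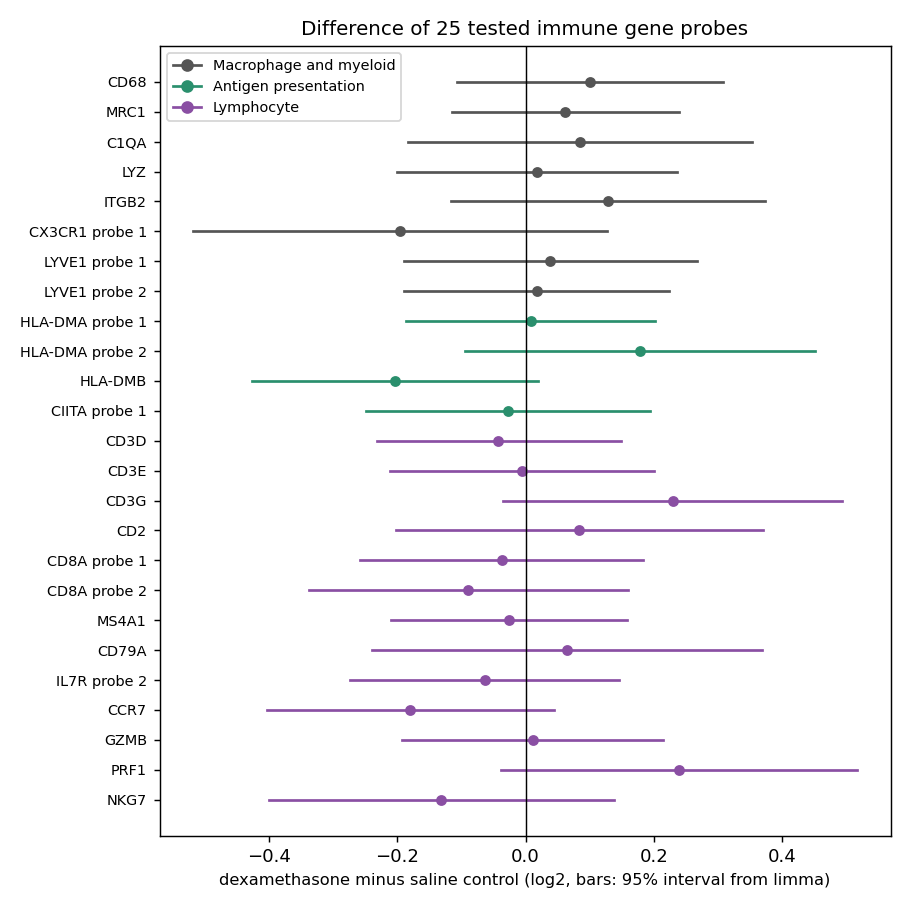
Difference between dexamethasone and saline stallions for the 25 tested immune gene probes, as log2 differences with 95% intervals from limma, coloured by gene role. Every interval holds 0, and the points lie between -0.20 and 0.24.

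The split of the 22 genes, 12 higher and 10 lower after dexamethasone, depended on how arrays were scaled. Under median scaling it was 5 higher and 17 lower, as over all tested genes, where 23.0% were then higher against 47.4%. With the authors' scaled values it was 10 higher and 12 lower. The myeloid genes, 6 of 7 higher in the values above, were 2 of 7 higher under median scaling, with a median of -0.01. With the authors' scaled values 5 of 7 were higher, with a median of 0.04. The lymphocyte genes, 5 of 12 higher, were 2 of 12 under median scaling and 4 of 12 with the authors' scaled values.

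Over the 22 genes the range between the highest and lowest stallion had a median of 0.31, against 0.32 over all tested genes. The narrowest of the tested genes was that of MRC1 (0.14). Residual spread was set beside that of the 501 tested probes nearest in level. It was above the median of those neighbours for 13 of 25 member probes. CX3CR1 lay at percentile 90.0 among them, CD2 at 89.2 and HLA-DMA at 86.4, while MRC1 (0.8) and MS4A1 (4.2) were at the other end. The median deviation from each gene's mean over the animals ran from -0.03 in treated replicate 2 to 0.03 in treated replicate 1 over the 22 genes. Treated replicate 2 held the highest value of 7 genes and the lowest of 4, and saline replicate 3 the highest of 2 and the lowest of 5. For the 7 myeloid genes the medians were -0.05, -0.02 and -0.01 in the saline stallions and 0.01, 0.07 and 0.06 in the treated ones. For the 12 lymphocyte genes they were 0.02, 0.04 and 0.02 against 0.04, -0.07 and 0.00. For the 3 antigen presentation genes they were 0.13, -0.02 and -0.02 against 0.11, -0.11 and -0.13, where the first treated animal lacks HLA-DMB.

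**Figure D4:**
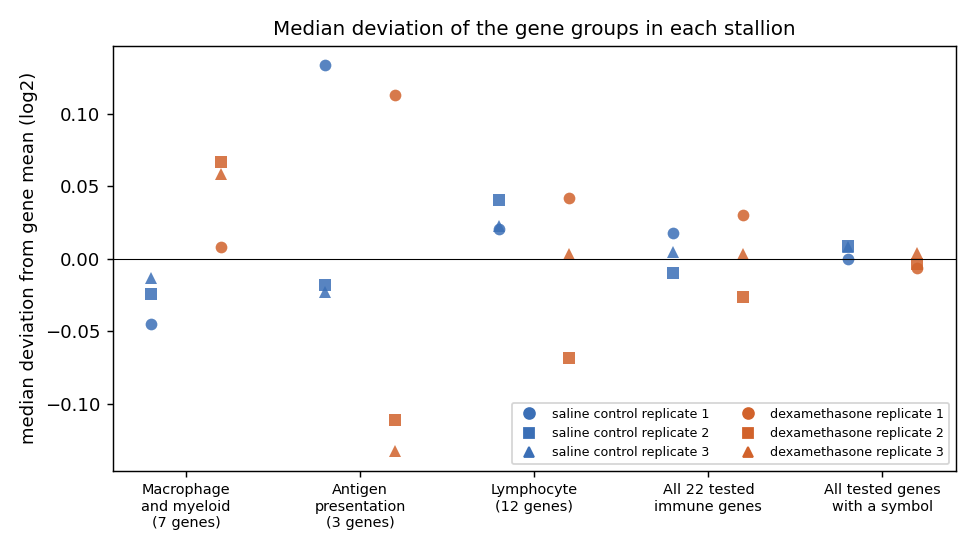
Median deviation (log2) of each gene group from its genes' means over the 6 animals, 1 marker per stallion, with all tested genes at the right. The lymphocyte and antigen presentation groups overlap between treatments, and all 22 genes together span -0.03 to 0.03. The myeloid medians separate here. Their median difference of 0.06 was -0.01 under median scaling and 0.04 with the authors' scaled values. That of all tested genes was -0.01, and -0.09 and -0.07 under these.

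Of 26 further macrophage and myeloid genes with a probe of their own 14 were tested, 4 higher and 10 lower, with a median of -0.07 and 0 past limma's unadjusted p of 0.05. That median was 0.01 without the filter on dim probes, -0.04 with probes above background on all 6 arrays, -0.11 with plain background subtraction and -0.14 both under median scaling and with the authors' scaled values. The smallest p was that of TIMD4, a phosphatidylserine receptor of resident macrophages. It read 6.92, 6.82 and 6.94 in saline stallions and 6.79, 6.68 and 6.67 in treated ones, a difference of -0.18 ± 0.08 (SE) and limma's adjusted p = 0.999. The groups of TIMD4 did not overlap, as was so for 9.27% of all tested probes. Its limma unadjusted p of 0.0580 was 0.0230 with plain background subtraction (difference -0.34), 0.0270 with the authors' scaled values (-0.37), 0.0478 under robust trended eBayes and 0.0437 without treated replicate 1. Only these 4 of 14 alternatives for TIMD4 gave a p under 0.05. That p was 0.0727 when blocked on the slide run and 0.0701 without the filter on dim probes. It was 0.129 and 0.136 without control replicates 1 and 3, and 0.121 and 0.139 without treated replicates 2 and 3. Of 27 further antigen presentation genes 14 were tested, 8 higher and 6 lower, with a median of 0.01 (-0.07 under median scaling, -0.04 with the authors' scaled values, -0.02 without control replicate 2). Of the 14, 1 passed the unadjusted p, against 3.29% of all tested probes. The gene was CALR, calreticulin, a chaperone of the endoplasmic reticulum found in all cells. It read 10.88, 10.97 and 10.92 in saline stallions against 10.84, 10.40 and 10.73. Its groups did not overlap, as was so for 9.27% of all tested probes. The difference was -0.27 ± 0.11 (SE), with limma's adjusted p = 0.999, -0.14 without treated replicate 2 and -0.42 under median scaling. Its limma unadjusted p of 0.0422 did not stay under 0.05 when blocked on the slide run (0.0527), with plain background subtraction (0.0851), or without control replicate 1 (0.0627), 2 (0.106) or 3 (0.0804) or treated replicate 2 (0.163). Of 28 further lymphocyte and NK cell genes 21 were tested, 13 higher and 8 lower, with a median of 0.03 (-0.05 under median scaling, -0.03 with the authors' scaled values) and 0 past the unadjusted p. TBX21, a transcription factor of T helper and NK cells, read 9.21, 9.57 and 9.31 against 9.54, 9.66 and 9.60, with groups that overlapped and a difference of 0.24 ± 0.11 (SE). It was 0.10 under median scaling, 0.16 without control replicate 1 and 0.34 without control replicate 2, with limma's unadjusted p at 0.0501, 0.366, 0.189 and 0.0071 in that order. With probes above background on all 6 arrays that p was 0.0461.

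Of 10 neutrophil and mast cell genes with a probe 4 were tested, 2 higher and 2 lower, with a median of -0.01. That median was 0.02 with plain background subtraction and without the filter on dim probes, -0.08 under median scaling, -0.03 with the authors' scaled values and 0.15 without control replicate 2. Among them S100A12, calgranulin C of neutrophils, was above background in 3 of 3 saline stallions and 0 of 3 treated ones. It read 6.49, 6.42 and 6.65 against 6.19, 6.17 and 5.68. Its groups did not overlap, as was so for 9.27% of all tested probes. The spots were dim, with background-subtracted intensities of 33.0 to 45.2 in the saline and -4.19 to 20.7 in the treated animals. The mean of the saline stallions was 1.17-fold the lowest value above background on the treated arrays, taken where S100A12 itself read lower. That ratio carries no error and sets no lower limit on a difference. S100A12 was the 1 gene of the list past the unadjusted p. It entered the test only through the saline group, so that its count, its separate groups and this ratio are no support for a difference. No fitted difference is given. Markers of blood and vessels are given beside these. The 4 tested erythrocyte genes had a median of 0.11 (0.04 under median scaling). The 7 tested endothelial genes were all lower, where 52.6% of all tested genes were lower. The endothelial median was -0.09 (-0.14 under median scaling, -0.21 with the authors' scaled values, -0.015 without treated replicate 1). Of either list 0 passed the unadjusted p. Their part in the immune gene values was not tested.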

How the data were processed

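Each array held 54990 spots. The authors deposited for each spot a mean intensity, a median local background intensity, a scaled intensity (the background-subtracted value over 1 constant per array, from the values), a quality flag and, per the file headers, a signal strength. Per the file headers this score is the mean of a spot divided by the noise level of that spot. The series' value table held the same scaled intensity, equal within 0.001 on every spot compared. The scanner software is not given in the sources used here. Spots without a value or flagged C, I or P were treated as missing, and probe names printed more than once were left out as controls. Intensities were corrected with normexp (offset 50), quantile normalised and put on the log2 scale (limma 3.58.1, run in R 4.3.3). Figures used matplotlib 3.10.9 in Python 3.11.15. Probes above background on at least 3 of 6 arrays, with 2 values per group, were tested (24590) with lmFit and eBayes, two-sided, without covariates, with Benjamini-Hochberg adjustment over all of them. For each gene the tested probe of highest level stood. All members were named, with values per stallion for those above background on all arrays and the 3 of widest range, and of each other immune list the gene with the smallest p. Values per stallion of HLA-DMB and MRC1 were added after they were seen, since their groups did not overlap. The members and lists were chosen with earlier results of these data known. Slide numbers were read from the names under which the array data were deposited, and consecutive numbers were taken as a run. The runs are thus inferred. They number 2, each with both groups. Replicate numbers follow the order of the samples and pair no animals. The fit was tested on simulated data.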

Additional observations from a re-analysis of the deposited data

How the results depend on the processing

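All alternatives were listed as planned, and none as added. The members and lists they were run on were chosen with earlier results of these data known. No paired analysis was made, because each stallion received 1 treatment and gave 1 array, so that the groups hold different animals. No member probe passed limma's adjusted p in any alternative run. Over all probes the count past it was 1, and 0 with plain background subtraction, under robust trended eBayes or with probes above background on all 6 arrays. Leaving out single arrays gave 0 to 1 (0 without control replicate 1 or 3). Of 296 values of the 22 member genes under alternatives 25 changed sign, in 10 genes, and the smallest adjusted p was 0.659. The changed filters and robust trended eBayes leave the difference of a gene's probe as it is. So does the block on the slide run for genes with values on all 6 arrays. The 296 thus include values whose sign could not change, and the share of sign changes is no measure of stability. Members past the unadjusted p were 0 in each direction. Higher, there was 1 when blocked on the slide run (PRF1), where 383 of all 24590 tested probes were higher at that p. Leaving out single arrays gave 0 to 1 member, against 271 to 459 over all tested probes. These members were CD2 without control replicate 1, CD3G without control replicate 2, PRF1 without treated replicate 2 and HLA-DMA without treated replicate 3. Lower, there was 1 with plain background subtraction and under robust trended eBayes (HLA-DMB), where 465 and 445 of all tested probes were lower. With median scaling there were 2 (HLA-DMB and CCR7), where 1687 of all 24590 tested probes were lower. Leaving out single arrays gave 0 to 1 member, against 286 to 627 over all tested probes. These members were HLA-DMB without control replicate 2 and CCR7 without control replicate 3. Member genes tested numbered 22, 14 with the filter of all 6 arrays and 37 with no filter, and 9 had a signal strength of at least 2 on 3 arrays. The myeloid median of 0.06 was 0.088 with background subtraction, -0.0082 with median scaling and 0.0178 with no filter. Leaving out single arrays gave 0.0207 (treated replicate 3) to 0.1064 (treated replicate 1). The antigen presentation median of -0.03 was -0.1725 with median scaling, and leaving out single arrays gave -0.0927 to 0.1428 (treated replicate 3, which leaves 2 genes). The lymphocyte median of -0.02 was -0.0764 with median scaling and -0.0656 with the authors' values. The median of all members, 0.01, was -0.0501 and -0.0142 under these, and leaving out single arrays gave -0.0113 to 0.0393. The shift of all tested genes to -0.09 under median scaling accompanied these, and the causes were not tested. Probes past the unadjusted p numbered 808, of which 44.7% were higher, 1798 under median scaling (6.17%), 838 with the authors' values (26.0%), 2075 with no filter (48.7%) and 581 to 1051 with single arrays left out. Signal over background limits what can be read: 20 of 46 probes lay below it on all arrays.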
